A study of Mus musculus with 22 samples.

Results

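The pan-B and follicular B cell genes were followed in the spleens of cyclin D1 transgenic mice. The set held 33 genes: the signalling chains and surface proteins of B cells, their inhibitory and Fc-like receptors, the kinases and adaptors of the B cell receptor, costimulatory proteins, and the transcription factors of B cell identity. They were chosen by name and matched by gene symbol, or an older synonym, in the array's probe annotation, with no use of measured values in the matching. Of these genes, 30 had a probe among the 19057 named genes of the array, with 66 probes in all, and each was read from its probe with the highest mean. Cd79a, Lyn and Cd38 were not analysed here. A filter on dim probes left 29 members for testing and removed Bach2.

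RNA of whole spleen was hybridised to 1-colour Illumina bead arrays, 1 array for each of 22 mice, all of which overexpress cyclin D1. Diseased Bim-deleted mice (n = 7) lacked Bim, a protein that promotes cell death, in their B cells and had developed the disease that the labels call MCL. Non-diseased Bim-deleted mice (n = 7) had the same deletion without disease, and transgene-only mice (n = 8) carried cyclin D1 alone. Disease was judged by histopathology, and the promoter of the transgene, the means of deletion in B cells and the age of the mice were not given in the sources used here. Every mouse received sheep red blood cells (SRBC), an antigen that calls on T cell help. Of the diseased mice 3 received irradiation as well, 1 pristane and 3 SRBC alone. Of the non-diseased Bim-deleted mice 3 received irradiation, 2 pristane and 2 SRBC alone, and of the transgene-only mice 3 received irradiation, 2 pristane and 3 SRBC alone. Pristane is an oil that provokes inflammation when injected. A mouse is named here by its group, a letter for the stimulus (A for SRBC alone, I for irradiation, P for pristane) and its number.

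A mature B cell senses antigen through its surface immunoglobulin, which signals through the paired chains CD79A and CD79B. The SRC-family kinases LYN and BLK and the kinases SYK and BTK carry the signal to the adaptor BLNK and the phospholipase PLCG2, while CD22 and CD72 dampen it. Follicular B cells, the recirculating majority in the spleen, carry the low-affinity IgE receptor CD23, encoded by Fcer2a, and PAX5 and EBF1 hold the identity of the lineage. In RNA of a whole spleen, fewer cells of a type and less RNA per cell cannot be told apart.

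Values are log2 intensities as the authors deposited them, normalized so that every array has a median of 6.55. The labelled tissue held strong B cell signal: Cd79b lay between 10.37 and 12.88 in the 22 mice, far above that median. Some members lay near the array median in every mouse, which limits what their probes can show. Pax5 lay between 6.40 and 6.60, Bach2 between 6.38 and 6.50, and Cd24a between 6.50 and 6.81.

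The level of the set as a whole was summarised by a member score, the mean over the 30 measured members of each log2 intensity minus that gene's mean over the 22 mice. The score was narrow in diseased mice, at 0.04 ± 0.07 (SD, n = 7) with a range of -0.09 to 0.14. It was -0.06 ± 0.42 (n = 7, -0.82 to 0.39) in non-diseased Bim-deleted mice and 0.02 ± 0.47 (n = 8, -1.13 to 0.28) in transgene-only mice. At the low end of both non-diseased groups stood 3 mice given pristane, transgene-only P_2 at -1.13 and non-diseased Bim-deleted P_1 at -0.82 and P_2 at -0.43. The other 2 pristane mice, diseased P_1 at 0.09 and transgene-only P_1 at 0.16, lay among the rest. Transgene-only P_2 was the lowest of all 22 mice for 17 of the 29 tested members and non-diseased Bim-deleted P_1 for 8, and these 3 pristane mice were the 3 lowest for 14 members. Results are therefore given with all mice and without the 5 pristane mice.

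**Figure D1:**
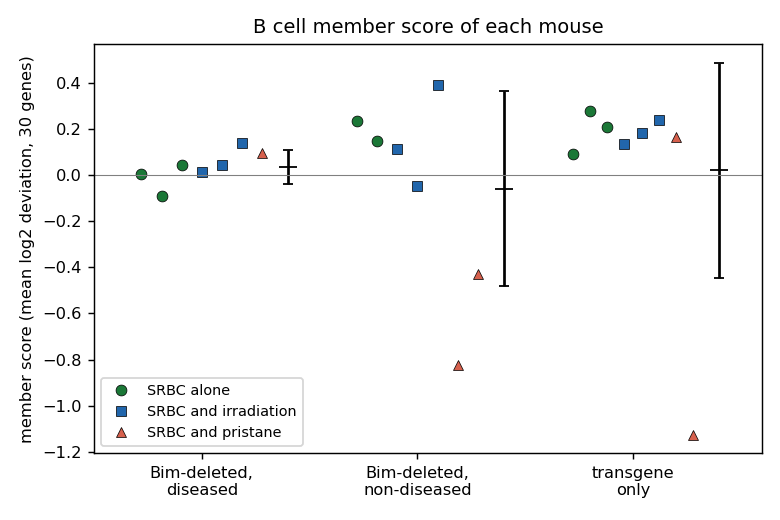
Member score (log2, vertical axis) of each of the 22 mice, by group, with markers by stimulus; the bars beside each group are the mean and SD. The 3 low points at -1.13, -0.82 and -0.43 are pristane mice without disease, and the diseased mice lie between -0.09 and 0.14.

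Markers of other cell types were read in these 3 mice as well. The score of 10 neutrophil and granule genes, computed in the same way, was 1.99 in transgene-only P_2, 1.72 in non-diseased Bim-deleted P_1 and 2.10 in P_2, while diseased mice spanned -1.45 to 0.68. The erythroid score was 1.36, 0.85 and 0.99 in the same 3 mice, and the T cell score -1.41, -0.36 and -0.64. Diseased mice spanned -0.28 to 1.08 in the erythroid and -1.14 to 0.17 in the T cell score. Only transgene-only P_2 of the 3 lay outside these 2 ranges. Transgene-only P_1 stood apart the other way, with an erythroid score of -3.40 and a neutrophil score of -3.24. The part of these other cells in the member scores was not tested.

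**Figure D2:**
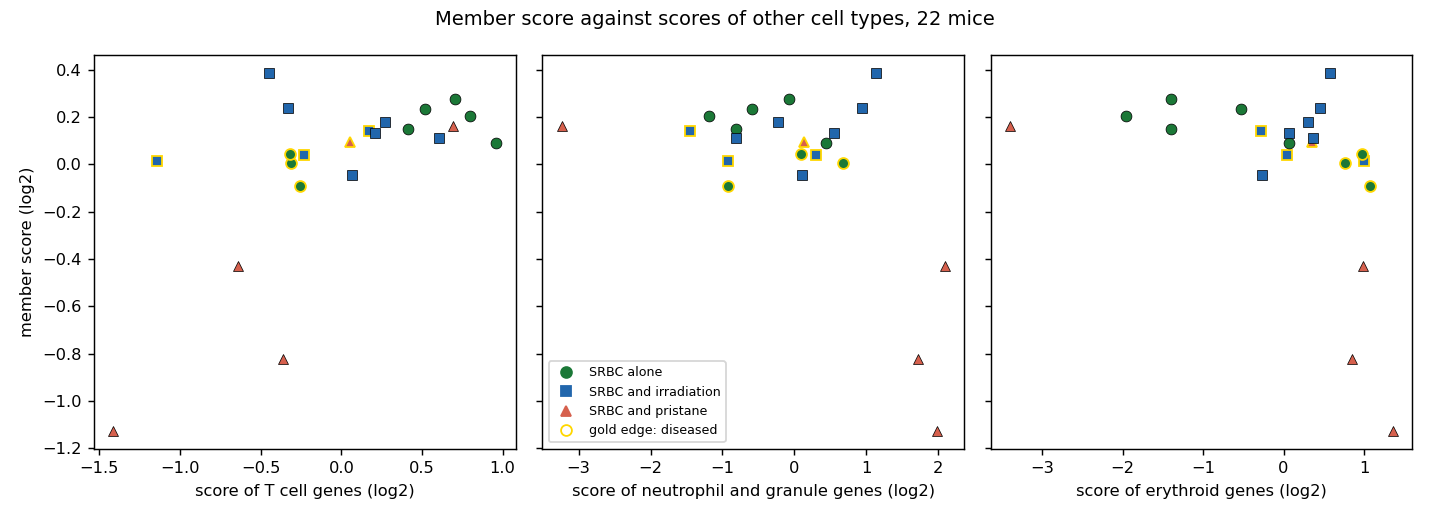
Member score (vertical axis, log2) of the 22 mice against the scores of T cell, neutrophil and granule, and erythroid genes (horizontal axes, log2). The 3 mice with the lowest member scores have neutrophil scores of 1.72 to 2.10 and erythroid scores of 0.85 to 1.36. Diseased mice reach an erythroid score of 1.08.

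Without the pristane mice the score was 0.03 ± 0.08 (SD, n = 6) in diseased mice, 0.17 ± 0.16 (n = 5) in the non-diseased Bim-deleted group and 0.19 ± 0.07 (n = 6) in transgene-only mice. The score of diseased minus non-diseased Bim-deleted mice came to 0.09 with all mice and -0.14 without pristane. Diseased minus transgene-only was 0.01 with all mice and -0.16 without pristane. The sign of both differences thus turned on the pristane mice. These scores are descriptions, and no test was made of them.

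The level of Xist, the RNA that silences an X chromosome in female cells, also moved with the groups. The labels give no sex, and Xist lay either at 6.39 to 6.53 or at 7.44 to 8.97. It was above 7 in 6 of 7 diseased mice, 2 of 7 non-diseased Bim-deleted mice and 4 of 8 transgene-only mice, and in 5 of 5 pristane mice, against 7 of the 17 others. Without pristane the counts were 5 of 6, 0 of 5 and 2 of 6 in the same order of groups, so that no non-diseased Bim-deleted mouse was then above that level. The group comparisons were also fitted with this level as a covariate. Its part in the differences below was not tested beyond these fits, and among the 5 pristane mice it cannot be told apart from pristane. Without pristane, between the Bim-deleted groups, the Xist level can hardly be told apart from disease. A call that does not pass in that fit therefore assigns the difference to neither. The level of 7 was chosen after seeing the data.

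Setting diseased against non-diseased Bim-deleted mice asks what differs with disease at the same genotype. Of the 29 tested members 1 rose, Cd180, and 0 fell at an adjusted p under 0.05 by limma, where 1.83% of all 20463 features were called. In all 21 members were higher and 8 lower, with a median difference of 0.08, against -0.0040 over all features. For 0 of 29 members were the 2 groups separate, against 0.445% of all features. Without the pristane mice 4 members fell and 0 rose, where 3.94% of all features were called: Cd22, Fcer2a, Ralgps2 and Cd40. There 18 members were lower and 11 higher, and the median was -0.07, against -0.0030 over all features. With the Xist level as a covariate as well, a fit added after seeing the data, 0 members passed limma, where 0.0831% of all features were called. In that fit 8 of 29 members had an unadjusted p under 0.05, as had 2753 of 20463 features. The differences there were -0.61 ± 0.16 for Cd22 (SE, limma adjusted p = 0.127), -1.70 ± 0.55 for Fcer2a (adjusted p = 0.204), -0.91 ± 0.21 for Ralgps2 (adjusted p = 0.119) and -0.64 ± 0.24 for Cd40 (adjusted p = 0.261). With all mice and the Xist covariate Cd180 was the 1 call, a rise of 0.90 ± 0.19 (limma adjusted p = 0.0181), where 1.34% of all features were called.

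The comparison of diseased Bim-deleted with transgene-only mice adds the deletion to the difference. With all mice 0 of 29 members passed limma at an adjusted p under 0.05, where 5.22% of all features did, and 9 had an unadjusted p under 0.05, or 31%, against 20.2% of all features. The median difference was 0.07, with 16 members higher and 13 lower, and 0 of 29 members separated the groups, against 1.06% of all features. Without the pristane mice 9 members passed, where 13.1% of all features did. Fcrla, Blk, Cd180 and Ikzf3 rose, and Vpreb3, Cd22, Fcer2a, Ralgps2 and Cd40 fell. With the Xist level in that fit Fcrla and Ikzf3 rose and the same 5 members fell, where 8.24% of all features were called, and Blk (limma adjusted p = 0.118) and Cd180 (adjusted p = 0.0873) did not pass. With all mice and the Xist covariate Fcrla, Cd180 and Ly86 rose, where 4.43% of all features were called. A single transgene-only mouse moved the count as well: without P_2 there were 4 calls, a rise of Cd24a and falls of Vpreb3, Fcer2a and Cd40, where 9.58% of all features were called. Between the Bim-deleted groups that fit called Fcrla and Cd180, both higher in diseased mice, where 2.25% of all features were called. Transgene-only P_2 is in neither of these groups, so the differences were unchanged and only the shared estimate of the spread moved.

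**Figure D3:**
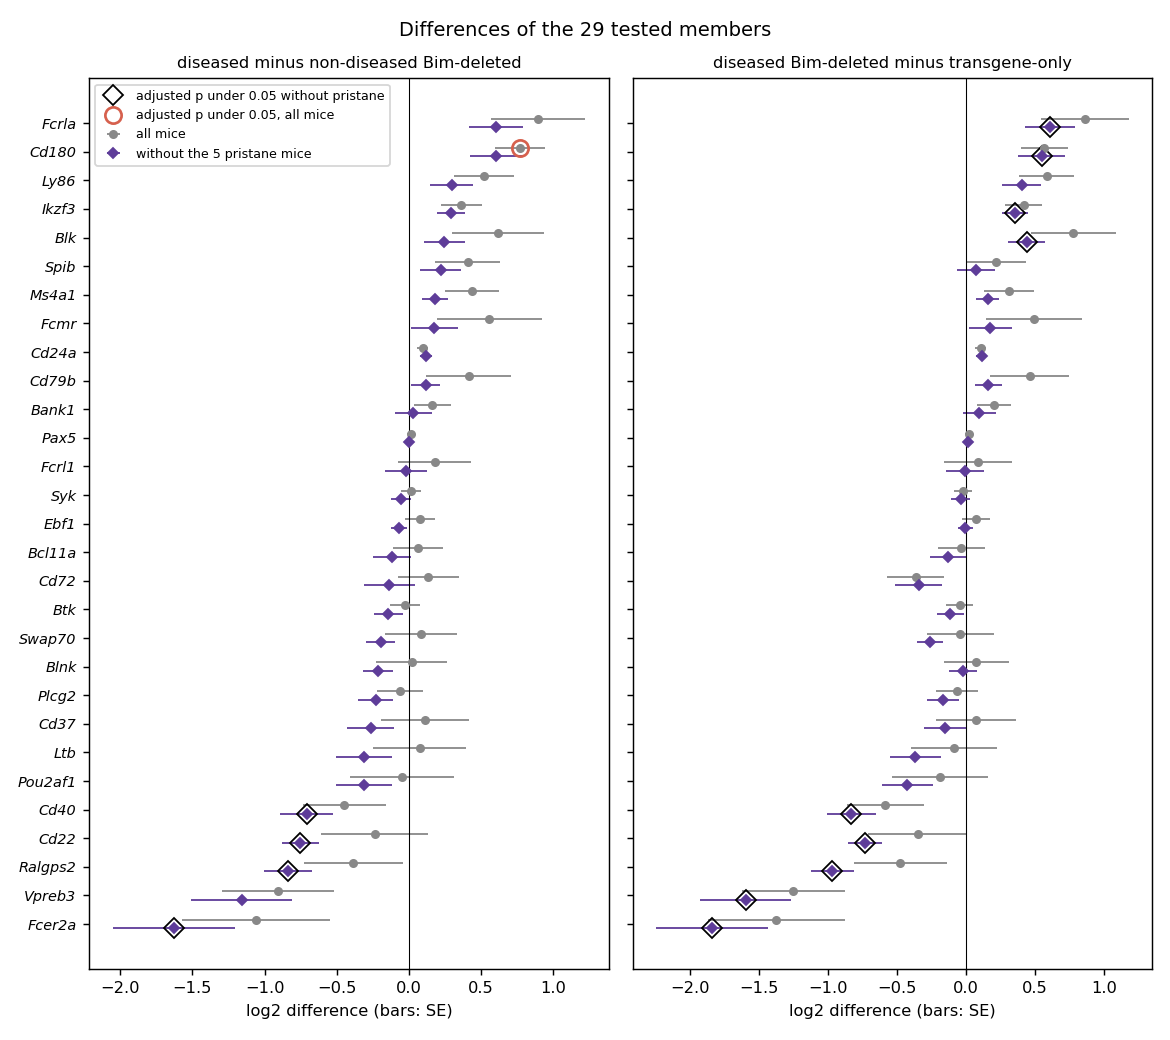
Log2 differences with SE of the 29 tested members, diseased minus non-diseased Bim-deleted and diseased Bim-deleted minus transgene-only, with all mice (grey circles) and without the 5 pristane mice (purple diamonds), and calls ringed. Without pristane Fcer2a lies lowest in both, at -1.63 and -1.84, and Fcrla and Cd180 lie highest, at 0.55 to 0.61.

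In the comparison of non-diseased Bim-deleted with transgene-only mice, which sets the deletion against cyclin D1 alone without disease, 0 of 29 members passed limma, as did 0% of all features, and 679 features and 1 member had an unadjusted p under 0.05. Without pristane 0 members and 0% of features passed, with 0 members and 741 features at an unadjusted p under 0.05. The member with the smallest p was Cd72, a receptor that dampens B cell receptor signals. It spanned 10.06 to 11.13 (median 10.71) in diseased mice, 9.36 to 11.13 (median 10.79) in the non-diseased Bim-deleted group and 10.70 to 11.21 (median 11.04) in transgene-only mice. Of 7 non-diseased Bim-deleted mice 3 lay below every transgene-only mouse, and the difference was -0.50 ± 0.20 (SE, limma adjusted p = 0.9999). Without pristane it was -0.21 ± 0.18, and non-diseased Bim-deleted P_1 had the lowest level, 9.36. Next came Cd180 (-0.20 ± 0.17 SE) and Vpreb3 (-0.35 ± 0.38 SE) with all mice, both with a limma adjusted p of 0.9999. None of the 29 members separated these groups, against 0.00977% of features with all mice and 0.415% without pristane.

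Of the receptor complex and surface proteins, Cd79b is the signalling chain of the B cell receptor, and it was tightly held in diseased mice. It spanned 12.53 to 12.88 (median 12.77) in diseased mice, 11.33 to 12.80 (median 12.60) in the non-diseased Bim-deleted group and 10.37 to 12.86 (median 12.48) in transgene-only mice. The low ends of both non-diseased groups were pristane mice, and 3 of 7 diseased mice lay above every non-diseased Bim-deleted mouse. The difference was 0.41 ± 0.29 (SE, limma adjusted p = 0.57) between the Bim-deleted groups and 0.46 ± 0.29 (adjusted p = 0.396) against transgene-only mice. Without pristane the means were 12.73 ± 0.12 (SD, n = 6) in diseased mice, 12.62 ± 0.19 (n = 5) in the non-diseased Bim-deleted group and 12.57 ± 0.20 (n = 6) in transgene-only mice. A second Cd79b probe followed the first at r = 0.94 over 22 mice and differed by 0.73 between the Bim-deleted groups.

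Ms4a1, which encodes the surface protein CD20, spanned 7.98 to 8.27 (median 8.15) in diseased mice, 6.75 to 8.24 (median 7.86) in the non-diseased Bim-deleted group and 6.99 to 8.29 (median 7.90) in transgene-only mice. All 3 ranges overlapped, and the pristane mice again set the low ends of the groups without disease. The differences were 0.43 ± 0.19 (SE, limma adjusted p = 0.269) between the Bim-deleted groups and 0.31 ± 0.18 (adjusted p = 0.357) against transgene-only mice. Without pristane they were 0.18 ± 0.09 and 0.16 ± 0.08. The tetraspanin gene Cd37 averaged 9.38 ± 0.27 in diseased mice, 9.27 ± 0.66 in the non-diseased Bim-deleted group and 9.31 ± 0.70 in transgene-only mice (SD, n = 7, 7 and 8). Cd24a, which encodes a small anchored glycoprotein, averaged 6.69, 6.60 and 6.59 in the same order, close to the array median. The Cd37 difference between the Bim-deleted groups was 0.11 ± 0.30 with all mice and -0.27 ± 0.16 without pristane.

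Vpreb3 encodes an endoplasmic reticulum protein of the B lineage that binds newly made immunoglobulin chains. It spanned 6.79 to 8.91 (median 8.33) in diseased mice, 8.21 to 9.52 (median 8.85) in the non-diseased Bim-deleted group and 7.21 to 9.998 (median 9.42) in transgene-only mice. Diseased I_1 at 6.79 and A_1 at 7.18 lay lowest of all mice, with transgene-only P_2 at 7.21 next. The difference was -0.91 ± 0.39 (SE, limma adjusted p = 0.269) between the Bim-deleted groups and -1.25 ± 0.38 (limma adjusted p = 0.0572, exact permutation p = 0.0154 unadjusted) against transgene-only mice. Without pristane, diseased mice spanned 6.79 to 8.91, non-diseased Bim-deleted mice 8.46 to 9.52 and transgene-only mice 9.02 to 9.998. The diseased and transgene-only ranges then did not overlap, and Vpreb3 fell by 1.60 ± 0.33 (SE, limma adjusted p = 0.00643) against transgene-only mice. The difference of -1.16 ± 0.35 from non-diseased Bim-deleted mice did not pass (limma adjusted p = 0.0727). Without pristane 5 of 29 members, Vpreb3, Cd22, Fcer2a, Ralgps2 and Cd40, were lower in every diseased mouse than in any transgene-only mouse, against 5.59% of all features.

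Promoters of Vpreb3, Cd22 and Fcrl1 are shown, 1 window for each motif searched. Windows run from 250 bases before to 50 after the start of transcription as RefSeq gives it on GRCm38.p6, and 26 of the 33 members had at least 1 of 32 windows. Capitals mark matches, searched on both strands, to the octamer ATGCAAAT, read by OCT factors with the coactivator that Pou2af1 encodes, to TCCCNNGGG, a form of the EBF site, or to GAGGAAGT, a form of the site of SPIB and PU.1. The Vpreb3 window lies at chr10:75948050-75948349 on the plus strand, that of Cd22 at chr7:30878979-30879278 on the minus strand and that of Fcrl1 at chr3:87376137-87376436 on the plus strand.
Vpreb3: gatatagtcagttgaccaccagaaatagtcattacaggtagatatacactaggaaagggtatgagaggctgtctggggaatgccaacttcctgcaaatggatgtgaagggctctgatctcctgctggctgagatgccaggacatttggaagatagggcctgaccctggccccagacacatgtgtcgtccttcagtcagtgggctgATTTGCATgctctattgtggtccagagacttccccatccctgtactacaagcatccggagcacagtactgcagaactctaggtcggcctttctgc
Cd22: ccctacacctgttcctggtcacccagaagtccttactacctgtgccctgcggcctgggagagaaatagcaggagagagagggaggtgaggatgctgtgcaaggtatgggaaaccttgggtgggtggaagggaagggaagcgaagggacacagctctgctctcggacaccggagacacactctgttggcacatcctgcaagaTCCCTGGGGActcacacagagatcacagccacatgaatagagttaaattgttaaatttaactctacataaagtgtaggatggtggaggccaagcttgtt
Fcrl1: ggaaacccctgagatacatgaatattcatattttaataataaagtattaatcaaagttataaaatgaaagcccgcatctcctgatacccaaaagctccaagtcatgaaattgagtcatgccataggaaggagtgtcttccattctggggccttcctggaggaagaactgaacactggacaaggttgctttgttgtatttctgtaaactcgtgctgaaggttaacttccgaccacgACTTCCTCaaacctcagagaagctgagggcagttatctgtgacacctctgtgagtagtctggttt
In Vpreb3 the capitals are the octamer, in Cd22 a pair of overlapping matches to the EBF form, and in Fcrl1 the SPIB form. The octamer was found in 2 members, Vpreb3 and Blnk, and in 1.735% of 32851 windows of all genes. The EBF form was found in 1 member and 6.557% of windows, and the SPIB form in 3 members, Fcrl1, Cd72 and Cd37, and 3.202% of windows. A match is a run of letters and was not tested as a site.

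Of the inhibitory and Fc-like receptors, Fcer2a and Cd22 fell without the pristane mice, against transgene-only mice also with the Xist level in the fit, and Fcrla lay higher in diseased mice. Fcer2a, the gene of CD23, spanned 7.32 to 9.63 (median 8.42) in diseased mice, 7.70 to 11.31 (median 9.10) in the non-diseased Bim-deleted group and 7.38 to 10.47 (median 9.92) in transgene-only mice. The lowest mice outside the diseased group were pristane mice, transgene-only P_2 at 7.38 and non-diseased Bim-deleted P_1 at 7.70. With all mice the difference was -1.06 ± 0.51 (SE, limma adjusted p = 0.344) between the Bim-deleted groups and -1.38 ± 0.50 (adjusted p = 0.114) against transgene-only mice. Without pristane the range was 7.32 to 9.63 in diseased mice, 8.97 to 11.31 in the non-diseased Bim-deleted group and 9.88 to 10.47 in transgene-only mice. Diseased mice then lay below every transgene-only mouse but overlapped the non-diseased Bim-deleted ones. Fcer2a fell by 1.63 ± 0.42 (SE, limma adjusted p = 0.0451, 0.204 with the Xist covariate) against non-diseased Bim-deleted and fell by 1.84 ± 0.40 (adjusted p = 0.00850) against transgene-only mice. Between the Bim-deleted groups the difference was -1.47 within SRBC alone, -1.66 within irradiation and 0.74 within pristane, where 1 diseased mouse stands against 2. Both other Fcer2a probes followed the first, at r = 0.97 and 0.98, and differed by -0.59 and -0.57.

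Cd22 encodes a sialic acid-binding receptor that restrains B cell receptor signals. It spanned 8.99 to 9.97 (median 9.51) in diseased mice, 8.10 to 10.50 (median 10.09) in the non-diseased Bim-deleted group and 7.82 to 10.30 (median 10.13) in transgene-only mice. The median of diseased mice was the lowest while the lowest single values belonged to pristane mice of the other groups. The differences of -0.24 ± 0.37 (SE, limma adjusted p = 0.837) between the Bim-deleted groups and -0.35 ± 0.36 (adjusted p = 0.651) against transgene-only mice did not pass. Without pristane, diseased mice spanned 8.99 to 9.90, below the 9.97 to 10.50 of non-diseased Bim-deleted and the 10.02 to 10.30 of transgene-only mice. Cd22 was the 1 member of 29 that separated the Bim-deleted groups in this way, against 2.82% of all features. It fell by 0.75 ± 0.13 (SE, limma adjusted p = 0.00953, 0.127 with the Xist covariate) against non-diseased Bim-deleted and fell by 0.73 ± 0.12 (adjusted p = 0.00225) against transgene-only mice. A second Cd22 probe followed the first at r = 0.97, and another lay at the array median.

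Fcrla encodes an intracellular Fc receptor-like protein of B cells that binds immunoglobulin. It spanned 10.99 to 11.81 (median 11.43) in diseased mice, 9.70 to 11.22 (median 10.80) in the non-diseased Bim-deleted group and 8.53 to 11.14 (median 10.82) in transgene-only mice. Of 7 diseased mice 6 lay above every non-diseased Bim-deleted mouse and 6 above every transgene-only mouse, and A_1 at 10.99 was the exception in both. The difference was 0.89 ± 0.33 (SE, limma adjusted p = 0.184, exact permutation p = 0.00233 unadjusted) between the Bim-deleted groups and 0.86 ± 0.32 (limma adjusted p = 0.123) against transgene-only mice, and neither passed over all features. Without pristane the first was 0.60 ± 0.19 (limma adjusted p = 0.0823), and against transgene-only mice Fcrla rose by 0.61 ± 0.18 (adjusted p = 0.0358). All 4 Fcrla probes were higher in diseased mice, by 0.86 to 1.16 between the Bim-deleted groups.

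Fcmr, the gene of the IgM Fc receptor, spanned 12.64 to 13.46 in diseased mice, 11.04 to 13.15 in the non-diseased Bim-deleted group and 10.29 to 12.97 in transgene-only mice. Fcrl1, the gene of an activating Fc receptor-like protein, spanned 7.65 to 8.79 (median 8.18) in diseased mice, 6.94 to 8.64 (median 8.15) in the non-diseased Bim-deleted group and 6.97 to 8.55 (median 8.26) in transgene-only mice. Both overlapped in every pair of groups, with differences between the Bim-deleted groups of 0.56 ± 0.36 (SE, limma adjusted p = 0.518) for Fcmr and 0.18 ± 0.25 (adjusted p = 0.820) for Fcrl1. Without pristane these were 0.18 ± 0.16 and -0.02 ± 0.14.

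**Figure D4:**
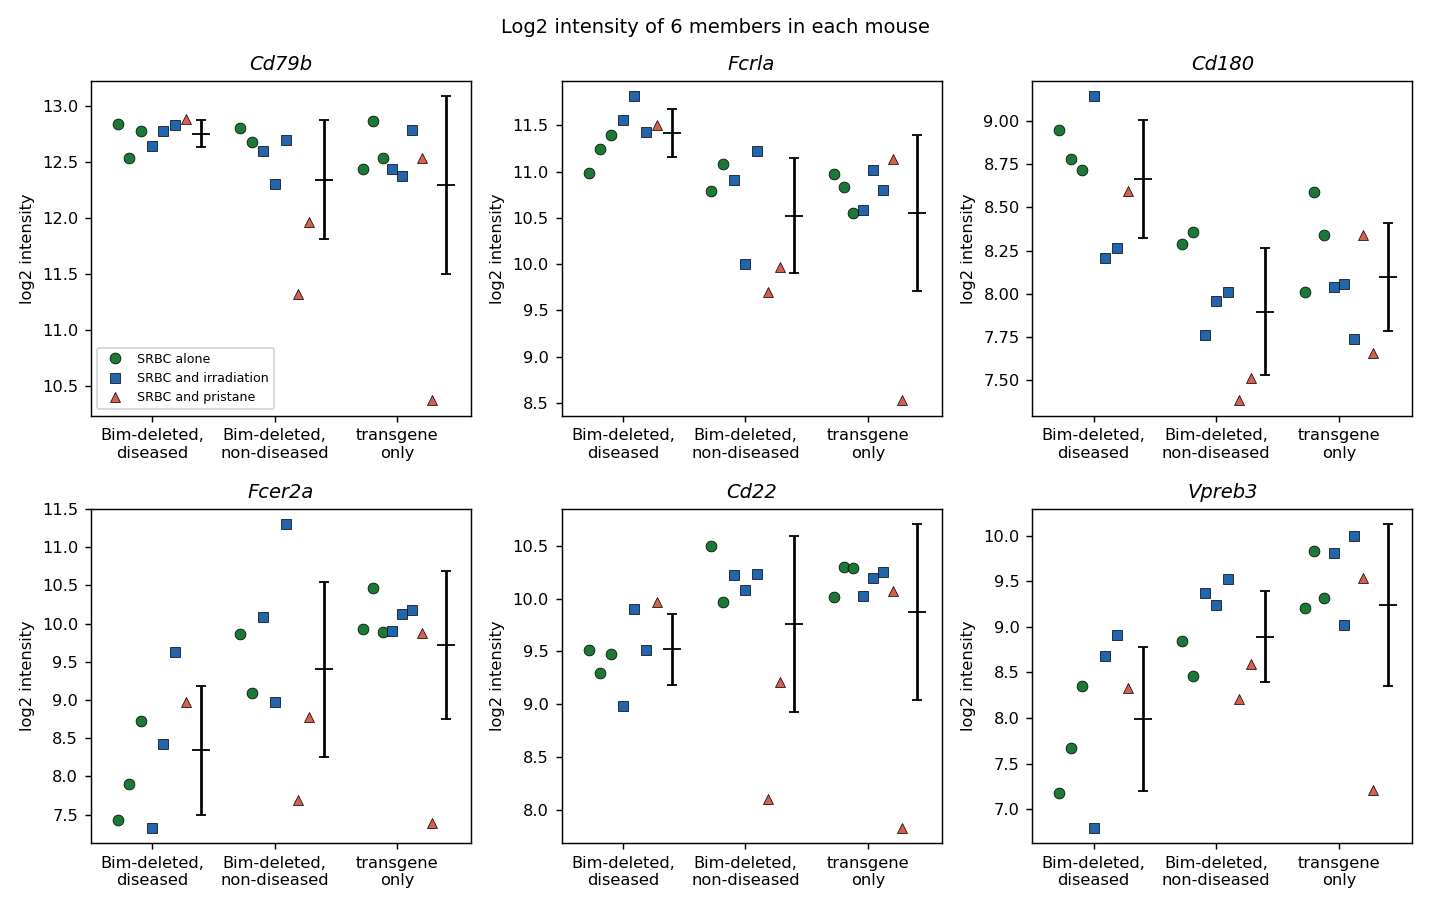
Log2 intensity (vertical axes) of Cd79b, Fcrla, Cd180, Fcer2a, Cd22 and Vpreb3 in each mouse, by group, with markers by stimulus and the mean and SD beside each group. Diseased Fcrla values lie between 10.99 and 11.81 and diseased Cd22 values between 8.99 and 9.97, and the lowest transgene-only point in each of the 6 panels is mouse P_2.

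The kinases, adaptors and effectors lay higher or lower in diseased mice gene by gene. Blk, a SRC-family kinase largely restricted to B cells, spanned 10.53 to 11.18 (median 10.92) in diseased mice, 9.11 to 10.85 (median 10.49) in the non-diseased Bim-deleted group and 8.19 to 10.67 (median 10.34) in transgene-only mice. Of 7 diseased mice 4 lay above every non-diseased Bim-deleted mouse and 5 above every transgene-only one. With all mice the difference was 0.62 ± 0.32 (SE, limma adjusted p = 0.385) between the Bim-deleted groups and 0.78 ± 0.31 (adjusted p = 0.154) against transgene-only mice. Without pristane it was 0.24 ± 0.14 between the Bim-deleted groups, and Blk rose by 0.44 ± 0.13 (limma adjusted p = 0.0424) against transgene-only mice.

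Ralgps2 encodes an exchange factor for RAL GTPases. It spanned 9.51 to 10.61 (median 9.70) in diseased mice, 8.98 to 10.88 (median 10.39) in the non-diseased Bim-deleted group and 8.39 to 10.83 (median 10.55) in transgene-only mice. The highest diseased mouse was P_1 at 10.61, and the other 6 lay between 9.51 and 10.01. Without pristane, non-diseased Bim-deleted mice spanned 9.76 to 10.88 and transgene-only mice 10.51 to 10.83. Ralgps2 then fell by 0.84 ± 0.16 (SE, limma adjusted p = 0.0164, 0.119 with the Xist covariate) against non-diseased Bim-deleted and fell by 0.97 ± 0.16 (adjusted p = 0.00206) against transgene-only mice. With all mice the differences were -0.39 ± 0.35 (limma adjusted p = 0.672) and -0.48 ± 0.33 (adjusted p = 0.467). Its other 6 probes showed smaller differences between the Bim-deleted groups, of -0.14 to 0.03 with all mice, where the first probe was not called either. Their differences without pristane are not given here.

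The central signalling genes passed no group comparison with all mice or without pristane. Btk averaged 10.46 ± 0.19 in diseased mice, 10.48 ± 0.26 in the non-diseased Bim-deleted group and 10.50 ± 0.14 in transgene-only mice (SD, n = 7, 7 and 8). Blnk averaged 8.73 ± 0.28, 8.71 ± 0.53 and 8.65 ± 0.55, and Plcg2 10.74 ± 0.23, 10.80 ± 0.36 and 10.81 ± 0.31, in the same order. The scaffold gene Bank1 averaged 7.50, 7.33 and 7.29, Swap70, which encodes an actin-binding RAC activator, 10.08, 10.002 and 10.13, and Syk, near the array median, 6.86, 6.85 and 6.88. Each of these 6 genes differed between the Bim-deleted groups by between -0.06 and 0.16 with all mice. Without pristane the differences were -0.22 ± 0.11 for Blnk, -0.23 ± 0.12 for Plcg2, -0.20 ± 0.10 for Swap70 and -0.14 ± 0.10 for Btk. Blnk and Swap70 thus changed sign, as did Syk, at 0.01 ± 0.07 with all mice and -0.06 ± 0.07 without pristane. Within SRBC alone Blnk differed by -0.46 and Btk by -0.38.

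Of the costimulatory proteins and the RP105 complex, Cd180 rose with disease. CD180, also called RP105, is a Toll-like receptor relative on B cells that pairs with MD-1, the product of Ly86. Cd180 spanned 8.21 to 9.14 (median 8.72) in diseased mice, 7.38 to 8.36 (median 7.96) in the non-diseased Bim-deleted group and 7.66 to 8.59 (median 8.05) in transgene-only mice. Of 7 diseased mice 5 lay above every non-diseased Bim-deleted mouse, and I_2 at 8.21 and I_3 at 8.27 did not. The mean was 8.66 ± 0.34 (SD, n = 7) in diseased and 7.90 ± 0.37 (n = 7) in non-diseased Bim-deleted mice, a rise of 0.77 ± 0.18 on the log2 scale (SE, 1.70-fold, limma adjusted p = 0.0297). The difference of 0.57 ± 0.17 from transgene-only mice, at 8.10 ± 0.31 (n = 8), did not pass (limma adjusted p = 0.0572).

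The Cd180 call depended on single mice and on the pristane mice. Without pristane Cd180 differed by 0.60 ± 0.18 (SE, limma adjusted p = 0.0712) between the Bim-deleted groups, and against transgene-only mice it rose by 0.55 ± 0.17 (adjusted p = 0.0466). Between the Bim-deleted groups it was 0.49 within SRBC alone, 0.63 within irradiation and 1.15 within pristane. The call was lost on leaving out diseased I_1, A_1 or A_2 (limma adjusted p = 0.0694, 0.0728 and 0.0662) or non-diseased Bim-deleted P_1, P_2 or I_1 (limma adjusted p = 0.0547, 0.0646 and 0.0547). The other 2 Cd180 probes lay near the array median, at means of 6.93 and 6.77, with differences of -0.04 and 0.09.

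Ly86 spanned 10.43 to 11.03 (median 10.73) in diseased mice, 9.63 to 11.03 (median 10.27) in the non-diseased Bim-deleted group and 9.10 to 10.57 (median 10.20) in transgene-only mice. Of 7 diseased mice 6 lay above every transgene-only mouse, and the differences of 0.52 ± 0.21 (SE, limma adjusted p = 0.231) between the Bim-deleted groups and 0.58 ± 0.20 (adjusted p = 0.101) against transgene-only mice did not pass. Without pristane they were 0.30 ± 0.15 and 0.40 ± 0.14. Cd40, the receptor through which T cells help B cells, spanned 9.10 to 9.86 (median 9.60) in diseased mice, 9.16 to 10.78 (median 9.92) in the non-diseased Bim-deleted group and 8.37 to 10.64 (median 10.34) in transgene-only mice. The 3 lowest diseased mice, A_2 at 9.10, A_1 at 9.18 and I_1 at 9.19, lay close to non-diseased Bim-deleted P_1 at 9.16, and transgene-only P_2 lay below them all. Without pristane Cd40 fell by 0.71 ± 0.19 (SE, limma adjusted p = 0.0458, 0.261 with the Xist covariate) against non-diseased Bim-deleted and fell by 0.83 ± 0.18 (adjusted p = 0.00715) against transgene-only mice. With all mice the differences were -0.45 ± 0.29 (limma adjusted p = 0.513) and -0.59 ± 0.28 (adjusted p = 0.242). Other Cd40 probes, at means of 8.65, 7.37, 6.63 and 6.49, differed between the Bim-deleted groups by -0.28, -0.18, -0.01 and -0.02 with all mice. Ltb, which encodes the lymphoid-organising cytokine lymphotoxin beta, averaged 10.78 ± 0.37 in diseased mice, 10.71 ± 0.70 in the non-diseased Bim-deleted group and 10.87 ± 0.72 in transgene-only mice (SD, n = 7, 7 and 8), with a difference between the Bim-deleted groups of 0.07 ± 0.32 with all mice and -0.31 ± 0.20 without pristane.

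Among the transcription factors and coactivators, Ikzf3 lay higher in diseased mice, and the others passed no group comparison with all mice or without pristane. Ikzf3, which encodes the zinc finger factor Aiolos, spanned 7.70 to 8.23 (median 7.95) in diseased mice, 7.28 to 7.97 (median 7.60) in the non-diseased Bim-deleted group and 6.76 to 7.97 (median 7.64) in transgene-only mice. Of 7 diseased mice 3 lay above every non-diseased Bim-deleted mouse and 3 above every transgene-only mouse. The difference was 0.36 ± 0.14 (SE, limma adjusted p = 0.214) between the Bim-deleted groups and 0.42 ± 0.14 (limma adjusted p = 0.0810, exact permutation p = 0.00730 unadjusted) against transgene-only mice. Without pristane Ikzf3 rose by 0.36 ± 0.09 (limma adjusted p = 0.0207) against transgene-only mice.

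Pax5, the factor that holds B cell identity, spanned 6.47 to 6.56 (median 6.52) in diseased mice, 6.46 to 6.60 (median 6.51) in the non-diseased Bim-deleted group and 6.40 to 6.57 (median 6.52) in transgene-only mice. Its probe stayed at the array median in every group, so it cannot show whether Pax5 differed. Ebf1 averaged 7.42 ± 0.09 in diseased mice, 7.34 ± 0.26 in the non-diseased Bim-deleted group and 7.34 ± 0.22 in transgene-only mice (SD, n = 7, 7 and 8). In the same order the Ets factor gene Spib averaged 8.86 ± 0.25, 8.45 ± 0.44 and 8.64 ± 0.54, and Pou2af1 10.78 ± 0.41, 10.83 ± 0.56 and 10.97 ± 0.96. The zinc finger gene Bcl11a averaged 9.19, 9.13 and 9.22, and Bach2, which encodes a repressor of plasma cell fate, 6.48, 6.46 and 6.46. Spib differed between the Bim-deleted groups by 0.41 ± 0.22 with all mice and 0.22 ± 0.14 without pristane, Pou2af1 by -0.05 ± 0.36 and -0.31 ± 0.19, and Ebf1 by 0.08 ± 0.11 and -0.07 ± 0.06.

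Directions were also counted within each stimulus. Between the Bim-deleted groups 9 of 29 members were higher in diseased mice within SRBC alone, 15 within irradiation and 28 within pristane. The pristane count sets 1 diseased mouse against 2, P_1 and P_2, with member scores of -0.82 and -0.43. Members vary together, and the like shares over all features are not given here. Lower in diseased mice within both SRBC alone and irradiation were 13 members, of which 12 were higher within pristane. Higher within all 3 stimuli were 8 members. Against transgene-only mice, a comparison with the same diseased mice, the counts of members higher were 13, 15 and 27, with 12 higher within all 3 stimuli. Within pristane 1 diseased mouse stood there against 2, of which transgene-only P_2 had a member score of -1.13. The interaction test of disease with irradiation against SRBC alone called 0 of 29 members and 0% of features. The smallest member p there was that of Btk (0.44 ± 0.19 SE, limma adjusted p = 0.973).

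**Figure D5:**
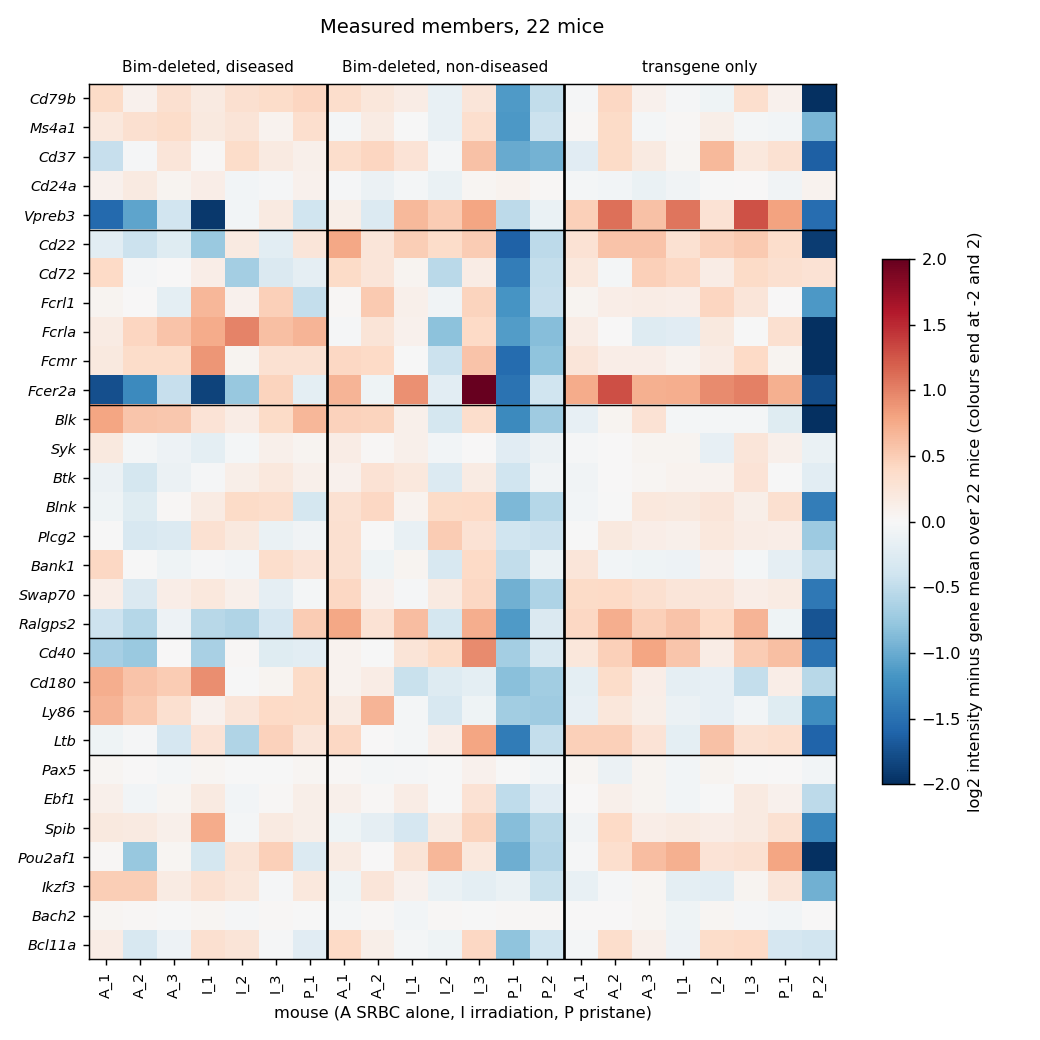
Log2 intensity of the 30 measured members minus each gene's mean over 22 mice (colour), with mice across the horizontal axis by group and members down the vertical axis by role. Transgene-only P_2 and non-diseased Bim-deleted P_1 are low across most members, with member scores of -1.13 and -0.82, while Fcer2a and Vpreb3 are low in diseased A_1, A_2 and I_1.

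The stimuli were compared in a model of group and stimulus. Pristane mice (n = 5) had a member score of -0.42 ± 0.56 (SD), irradiated mice (n = 9) 0.13 ± 0.13 and mice given SRBC alone (n = 8) 0.11 ± 0.13. Pristane minus irradiation was negative in 28 of 29 members, with a median of -0.71, and 1 passed, where 0.279% of all features did. That member was Fcrl1, which spanned 6.94 to 8.14 (median 7.65) with pristane and 8.06 to 8.79 (median 8.37) with irradiation, and fell by 0.92 ± 0.17 (SE, limma adjusted p = 0.0480). The pristane and irradiated ranges overlapped at their ends. Pristane minus SRBC alone was negative in 28 of 29 members with a median of -0.56, and 0 passed limma although 21 had an unadjusted p under 0.05, where 0.0147% of all features passed. The share of members with an unadjusted p under 0.05 was 72.4%, against 15.4% of all features. All 5 pristane mice were among those with the higher Xist level. Irradiation minus SRBC alone called 0 members and 0% of features by limma. At an unadjusted p under 0.05 were 2 members, against 4.68% of all features: Cd180 (-0.34 ± 0.13 SE, limma adjusted p = 0.980) and Ly86 (-0.32 ± 0.14 SE, adjusted p = 0.991).

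The number of pristane calls depended on which pristane mouse was left out. Without transgene-only P_1, 16 members fell against SRBC alone, where 6.92% of all features were called, and 18 fell against irradiation, where 8.85% were. Without diseased P_1 the counts were 9, beside 1.93% of features, and 14, beside 2.4%. Cd79b, Ms4a1, Cd22, Fcmr, Blk, Swap70, Ly86 and Bcl11a were called in all 4 of these fits. Each of them kept the pristane mice with low member scores, transgene-only P_2 and non-diseased Bim-deleted P_1 and P_2. Without the lowest mouse, transgene-only P_2, 0 members passed limma in either comparison, against 0.00977% of features for SRBC alone and 0% for irradiation, and the medians over members were -0.43 and -0.38. Without non-diseased Bim-deleted P_1 or P_2 the count was again 0 in both comparisons. Beside this, 10 of 10 neutrophil and granule genes were higher and 10 of 10 T cell genes lower with pristane than with SRBC alone, with 0 of each past the threshold.

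Members varied together across the 22 mice. With the mean deviation of the other members, which shares arrays and normalization with each member, Swap70 correlated at r = 0.94, Ebf1 at 0.92, Cd37 at 0.92 and Cd79b at 0.91. Correlations were lower for Cd180 (0.41), Cd72 (0.41) and Pax5 (0.29) and negative for Bach2 (-0.24) and Cd24a (-0.37). Over the 17 mice without pristane the values depended on whether each group's mean was first removed. Cd79b was at r = 0.24 (rho = 0.28) and 0.71 within groups, Ms4a1 at -0.04 (rho = -0.06) and 0.41, and Fcrla at -0.21 and 0.51. Swap70 was at 0.56 (rho = 0.51) and 0.31 within groups. Ralgps2 was at 0.78 and 0.71 within groups, and Fcer2a at 0.72 and 0.62. Ikzf3 was at -0.64 and -0.34 within groups, and Cd180 at -0.50 and -0.10.

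In a fit chosen after seeing these scores, the member score of each mouse entered as a covariate, so that a difference is read relative to the level of the set in that mouse. Each member is itself 1 of the 30 parts of that score, and these differences are relative, not levels. Over the 30 members they must cancel out, so falls of some members force rises of others. The features as a whole carry no such constraint, so their share is not a like background for the member counts. Between the Bim-deleted groups 10 of 29 members passed, where 4.73% of all features did: Cd79b, Ms4a1, Fcrla, Blk, Cd180 and Ly86 rose, and Vpreb3, Fcer2a, Ralgps2 and Cd40 fell. Against transgene-only mice 13 passed, where 9.77% of all features did. Cd79b (0.44 ± 0.07 SE, limma adjusted p = 5.74e-04), Fcrla (0.84 ± 0.14, 8.66e-04) and Blk (0.76 ± 0.10, 2.84e-04) were among the 8 that rose, with Ms4a1, Fcmr, Cd180, Ly86 and Ikzf3. Vpreb3, Cd22, Fcer2a, Ralgps2 and Cd40 fell, and Fcer2a fell by 1.41 ± 0.27 (limma adjusted p = 0.00238). The comparison of the groups without disease gave 0 calls by limma, against 0% of all features.

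The genes whose levels ran most like the member score over 22 mice, of 14471 other named genes, were H2-Eb1 (r = 0.97), Cd74 (0.97), Cxcr5 (0.96), H2-DMb2 (0.96), Chst3 (0.96), Zfp36l1 (0.96), 6330509M05Rik (0.95), Snn (0.95), Sbk1 (0.94) and H2-DMa (0.94). H2-Eb1 encodes a chain of MHC class II, Cd74 its invariant chain, H2-DMa and H2-DMb2 chains of the molecule that loads it with peptide, and Cxcr5 the receptor that draws B cells into follicles. Over the 17 mice without pristane these 10 genes had r = 0.56 to 0.90. The most opposed were Sap30 (-0.91), Vdac1 (-0.91), Slc23a3 (-0.90), Cgas (-0.90) and Rab44 (-0.89) with all mice, and without pristane these 5 had r = -0.61 to 0.16.

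Other genes of B cell receptor signalling were taken from a list of 32, of which 26 were tested. Between the Bim-deleted groups 1 rose and 0 fell, where 1.83% of all features were called, and the median over the list was 0.01. The gene that rose was Rac2, which encodes a GTPase of blood cells, with 10.99 ± 0.30 in diseased and 10.37 ± 0.32 in non-diseased Bim-deleted mice (SD, n = 7 each), a difference of 0.62 ± 0.16 (SE, limma adjusted p = 0.0427). Against transgene-only mice Rac2 rose by 0.52 ± 0.15 (limma adjusted p = 0.0491) and 4 fell, where 5.22% of all features were called. Inpp5d, the gene of the phosphatase SHIP1, fell by 0.60 ± 0.15 (limma adjusted p = 0.0232) and the exchange factor gene Rasgrp3 fell by 0.81 ± 0.23 (adjusted p = 0.0456). Pik3r1, a regulatory subunit of PI3 kinase, fell by 0.45 ± 0.12 (limma adjusted p = 0.0316) and Stim1, a calcium sensor, fell by 0.22 ± 0.06 (adjusted p = 0.0299). Without pristane 2 fell between the Bim-deleted groups, where 3.94% of features were called: Rasgrp3 fell by 0.84 ± 0.21 (limma adjusted p = 0.0408) and Inpp5d fell by 0.58 ± 0.16 (adjusted p = 0.049975). The Rac2 difference there was 0.49 ± 0.13 and did not pass (limma adjusted p = 0.0544). Against transgene-only mice 7 fell and 2 rose without pristane, where 13.1% of features were called, and beside Rac2 the other that rose was Fcgr2b, the inhibitory IgG receptor (0.51 ± 0.16 SE, limma adjusted p = 0.0430).

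Of 14 other B cell transcription factors 13 were tested. Bcl6, the regulator of germinal centre B cells, averaged 8.69 ± 0.50 in diseased mice, 9.48 ± 0.60 in the non-diseased Bim-deleted group and 9.69 ± 0.31 in transgene-only mice (SD, n = 7, 7 and 8). Bcl6 fell by 1.002 ± 0.24 (SE, limma adjusted p = 0.0181) against transgene-only mice, where 5.22% of all features were called. It was the 1 call in this list with all mice. Without pristane Ets1 fell by 0.66 ± 0.14 (limma adjusted p = 0.0242) and Bcl6 fell by 1.07 ± 0.26 (adjusted p = 0.0345) between the Bim-deleted groups, where 3.94% of all features were called. Against transgene-only mice Ets1, Bcl6 and Foxo1 then fell, where 13.1% of all features were called, and Foxo1 fell by 0.58 ± 0.13 (limma adjusted p = 0.00805). Over the 17 mice without pristane the scores of the receptor list and of the factor list ran with the member score at r = 0.84 and 0.77.

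Markers of other cells were read beside these results. Of 5 tested B-1a markers, genes of a self-renewing B cell subset, 4 rose between the Bim-deleted groups, where 1.83% of all features were called. Against transgene-only mice 5 rose, where 5.22% of all features were called. Their score spanned 0.22 to 1.13 in diseased mice, -0.67 to 0.03 in the non-diseased Bim-deleted group and -0.63 to -0.12 in transgene-only mice. Its correlation with the member score was r = -0.03 (rho = -0.41) with all mice. Over the 17 mice without pristane it was r = -0.64 (rho = -0.63). The group means of both scores enter these values, and none within groups is given here. Of 5 marginal zone B cell genes Cr2, a complement receptor that follicular B cells also carry, fell by 0.49 ± 0.12 (SE, limma adjusted p = 0.0218) against transgene-only mice. Without pristane Cr2 fell by 0.40 ± 0.08 (limma adjusted p = 0.0180) against non-diseased Bim-deleted mice as well, where 3.94% of all features were called. With the Xist level in the fit without pristane, 0.0831% of all features were called between the Bim-deleted groups. Rasgrp3, Inpp5d, Ets1, Bcl6 and Cr2 did not pass there (limma adjusted p = 0.169 to 0.238). Against transgene-only mice, where 8.24% of all features were called, Rasgrp3, Inpp5d, Ets1, Bcl6, Foxo1 and Cr2 still passed, while Fcgr2b did not (limma adjusted p = 0.0615).

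Without pristane the erythroid score was 0.60 ± 0.57 (SD, n = 6, -0.28 to 1.08) in diseased, -0.25 ± 0.78 (n = 5, -1.40 to 0.57) in non-diseased Bim-deleted and -0.41 ± 1.01 (n = 6, -1.96 to 0.46) in transgene-only mice. All 8 tested erythroid genes were higher in diseased than in non-diseased Bim-deleted mice, with 0 past the threshold of limma. At an unadjusted p under 0.05 were 3 of them, against 4011 of 20463 features. The T cell score was -0.35 ± 0.43 (n = 6, -1.14 to 0.17) in diseased, 0.23 ± 0.43 (n = 5, -0.45 to 0.60) in non-diseased Bim-deleted and 0.44 ± 0.48 (n = 6, -0.33 to 0.96) in transgene-only mice. Of 10 tested T cell genes 9 were lower in diseased than in non-diseased Bim-deleted mice, with 1 fall (Cd4) and 1 rise (Cd2), where 3.94% of all features were called. Neither passed with the Xist level in the fit (limma adjusted p = 0.189 and 0.127). Against transgene-only mice 5 fell, where 13.1% of all features were called. The part of these cells in the falls of Fcer2a, Cd22, Ralgps2 and Cd40 and in the rise of Cd180 was not tested.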

How the data were processed

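Total RNA of whole spleen from 22 mice was measured on 1-colour Illumina bead arrays, 1 per mouse. The deposited values are the authors' log2 intensities, already normalized between arrays (from the values, every array has the same distribution), and background correction is not given in the sources used here. A non-normalized table was left out, since none of its 44 sample columns matches a labelled mouse. Groups come from the sample titles; the design text counts 7 transgene-only mice and the titles 8, and all 8 were used. Nothing says that mice shared a litter or batch, and with 1 array per mouse the p-values measure the spread between these mice.

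Of 45281 probes, 34885 had 1 gene in the platform annotation, 18 several and 10378 none. Each gene took its probe with the highest mean, and features above the array's 40th percentile in at least 7 arrays were tested (20463 features). Differences were fitted with limma 3.58.1 in R 4.3.3 (lmFit, eBayes, two-sided), with Benjamini-Hochberg adjustment over all features and a threshold of 0.05. Groups were fitted with 1 mean each, stimuli with group and stimulus, and the interaction with 9 group and stimulus means. Single-member permutation tests were exact and two-sided. On simulated data with known changes, a log2 change of 1 was called in 92.5% of changed features in the comparison of both Bim-deleted groups. That share need not hold for members with a wide spread: Fcer2a differed by -1.06 ± 0.51 (SE) there and was not called. A member without a call may therefore still differ by that much. Genes given in full were each member past the threshold in a comparison, the 3 with the smallest p in each group comparison, and Cd79b, Ms4a1, Pax5 and Fcer2a; Blk, Cd22, Cd40, Ly86 and Ralgps2 were added after their values were seen. Alternatives covered the filter, the limma options, array weights, covariates, the groups fitted and leaving out single mice or the 5 pristane mice. The members and lists were chosen with earlier results of these data known.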

Additional observations from a re-analysis of the deposited data

Results flagged for a closer look

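Of 93 sets of 7 or 8 values (each member, and the member score, in each group), 24 held a mouse whose gap to its nearest neighbour was large for the range of its group by Dixon's criterion, which chance meets in about 1 of 20 sets. The sets are not independent, since the same mice enter each. In 22 of them the mouse was transgene-only P_2, given pristane, as the lowest of its group. Its member score was -1.13. Among surface proteins and receptors its log2 intensity was 10.37 for Cd79b, 6.99 for Ms4a1, 7.69 for Cd37, 7.21 for Vpreb3, 7.82 for Cd22, 6.97 for Fcrl1, 8.53 for Fcrla, 10.29 for Fcmr and 7.38 for Fcer2a. Among signalling genes it was 8.19 for Blk, 7.32 for Blnk, 10.05 for Plcg2, 8.64 for Swap70 and 8.39 for Ralgps2. It was 8.37 for Cd40, 9.10 for Ly86 and 9.19 for Ltb, and among transcription factors 6.84 for Ebf1, 7.34 for Spib, 8.70 for Pou2af1 and 6.76 for Ikzf3. The other 2 sets were those of diseased I_1, the highest of its group for Fcmr at 13.46 and for Spib at 9.39.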

How the results depend on the processing

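Counts of members called depended on the settings, and so did the share of all features called. For diseased against transgene-only mice that share was 5.22% as reported, 4.43% with the Xist level and 13.1% without pristane. No share is given for the filters, the limma options, array weights, the stimulus and erythroid covariates, the replicate block or most fits without single mice. Those counts cannot be read as results about the members. For diseased minus non-diseased Bim-deleted the count of 1 became 4 without the pristane mice, 0 without them and with the Xist level as a covariate, 10 with the member score as a covariate (both chosen after seeing the data) and 0 with only the 2 groups in the fit, and it ranged from 0 to 2 on leaving out single mice. Diseased Bim-deleted against transgene-only mice gave 0 calls as reported, 2 with a filter at the 60th percentile and 1 with trend and robust. There were 7 with array weights, 3 with stimulus as a covariate, 4 with the erythroid score and 3 with the Xist level. Without pristane there were 9, without pristane and with the Xist level 7, and without single mice 0 to 4. The fit with the member score, also chosen after seeing the data, gave 10 calls between the Bim-deleted groups and 13 against transgene-only mice. These counts are not like the others, since the member differences in that fit are relative and must cancel out. Pristane minus SRBC alone gave 3 calls with array weights and 0 to 16 without single mice. Pristane minus irradiation, with 1 call, gave 0 with no filter, 3 at the 60th percentile, 2 with trend and robust, 3 with array weights and 0 to 18 without single mice. The comparison of the groups without disease, irradiation minus SRBC alone and the interaction gave 0 under every alternative run. The differences in member score ranged from -0.03 to 0.17, -0.15 to 0.05 and -0.24 to 0.05 without single mice, in the order of the 3 group comparisons. The cause of these changes was not tested. Of 20 pairs of mice that share a stimulus letter and number, 5 had a correlation of deviations over 0.1 (range -0.50 to 0.35). Taking out group and stimulus with few mice in each pushes these correlations down. The check therefore cannot exclude a shared litter or batch. With that label as a replicate block the counts were 1, 3 and 0 for the group comparisons and 2 for pristane minus irradiation. Probes near the array median, among them Pax5, Bach2, Cd24a and Syk, limit what can be seen of those genes, and 5 pristane mice, 1 of them diseased and all with a high Xist level, limit every statement on pristane.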
